A study of Homo sapiens with 12 samples.

Results

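DNA replication and the entry into S phase were followed through 49 listed genes: 5 of origin licensing, 13 of the helicase and its activation, 19 of the polymerases, clamp and strand processing, 4 of nucleotide supply, 5 regulators of the G1/S transition and 3 of chromatin copying. The genes are a list of names that uses no measured value as a rule, drawn up with earlier results of these data known. Where the array carries several probe sets for a gene, the brightest of those with 1 gene symbol stood for it. All 49 of the 49 had such a probe set, out of 19775 genes in the table, and all 49 passed the filter on dim probe sets (a signal of 69.8), which 12674 genes passed.

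Replication starts at origins that are marked in G1, when the origin recognition complex with CDC6 and CDT1 loads the MCM helicase onto DNA. At the G1/S transition cyclin E, CDC7 and the E2F transcription factors set off firing: CDC45 and GINS join the MCM ring, polymerases copy both strands, and ribonucleotide reductase and thymidine kinase supply the nucleotides. Most of these genes are transcribed in a wave before and during S phase, and E2F sites in their promoters are a classical part of that control.

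The cells were SK-OV-3, a line from a human ovarian carcinoma, kept for 24 h in 12 separate dishes. Of these, 3 received PBS as the control, 3 received 100 ng/ml recombinant BMP2, 3 received DM (5 µM), and for the last 3 both were given at those doses. BMP2 is a bone morphogenetic protein, a ligand that cells secrete, and DM is a compound that the labels name only by these letters. RNA of each dish went onto its own Affymetrix array, and the deposited values are MAS5 signals, 1 for each probe set. All groups are of 1 cell line at 1 time, with no other treatment named in the labels, and the labels call the dishes biological replicates. The comparisons ask what the ligand did, what DM did with and without the ligand, and whether the ligand acted differently in its presence.

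The reagents were active on the genes usually read for BMP signalling. All 4 ID genes, which encode helix-loop-helix inhibitors, rose with BMP2 (log2 changes of 1.06 to 1.70) and fell with DM (log2 changes of -3.91 to -2.08). With BMP2+DM all 4 were higher than with DM (log2 changes of 1.45 to 2.92). Against PBS the BMP2+DM changes were smaller (-1.33 to -0.15), and ID1 overlapped (14697 to 20073, against 17605 to 20001 with PBS). All 5 markers of the line (ERBB2, PAX8, KRT8, KRT18 and KRT7) lay above the filter. Among markers of other cells this held for 4 of 5 mesothelial, 2 of 6 fibroblast and 1 of 6 endothelial genes, and for none of the 6 leukocyte genes. Taken over all arrays with DM and all without it, the summed signals of each list overlapped, except for the 5 markers of the line. These summed to 34723 to 40080.1 with PBS, 34912 to 39567 with BMP2, 40401 to 46092 with DM and 42051 to 46096 with BMP2+DM. Between single groups, leukocyte sums did not overlap for DM (83.1 to 214) and BMP2 (287 to 350). The same held for leukocyte sums with BMP2+DM (208 to 298) and PBS (151 to 190), and for fibroblast sums with DM (437 to 629) and BMP2 (687 to 802). The part of this in the results was not tested. The arrays had median signals of 86.7 to 112 and trimmed means of 495.8 to 496.1. Mean correlations with the other arrays of a group were 0.934 to 0.956, and all 3 BMP2 arrays had lower ones than any other array. Array 1 of the BMP2 group had the highest median signal, and array 2 the lowest signals of its group for all 4 ID genes (ID3 at 3240.2, against 9909 and 9251).

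The promoters show a sequence word that part of these genes share. RefSeq promoters (GRCh38.p14, 250 bases before to 50 bases after the start of transcription) were at hand for 41 of the 49 genes. They were searched on both strands for 4 words of the E2F site, TTTGGCGC, TTTCGCGC, TTTCCCGC and TTTGCCGC. At least 1 word stood in 23 of the 41 (56.1%), against 6.53% of the 10286 tested genes that have a promoter in the table and 3.31% of all 35116 promoters of this length. Helicase genes held it in 8 of 10, licensing genes in 3 of 5, polymerase genes in 7 of 15, regulators in 3 of 4, chromatin genes in 1 of 3 and nucleotide supply genes in 1 of 4. The word TTTGAA, the cell cycle homology region typical of mitotic genes, stood in 2 of the 41 (DUT and RRM1, 4.88%) against 13.9% of the tested genes. The CCAAT word stood in 24 of the 41 (58.5%) against 43.1%. A match is a description of the letters in this window and was not tested as a binding site.

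The stretches around the E2F words are shown for the 6 genes that hold one among those that passed the test in any comparison below. These are 6 of the 8 such genes with a promoter, against 17 of 33 genes that did not pass (51.5%). A link between the word and the test result was not tested. All stretches are printed from the plus strand of GRCh38.p14, 5' to 3'. Base 1 is the first transcribed base and -1 the base before it, and capitals mark the E2F words, which read as the reverse complement where the word lies on the other strand. In MCM2 the same word stands on both strands and overlaps itself. DUT holds 2 words, and UHRF1 holds 1 in each of 2 listed promoters.
MCM2, chr3:127598404-127598433, bases -7 to 23: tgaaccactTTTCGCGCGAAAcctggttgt
GMNN, chr6:24775287-24775386, bases -126 to -27: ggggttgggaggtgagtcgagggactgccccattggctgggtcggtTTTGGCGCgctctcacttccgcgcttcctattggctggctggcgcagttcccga
DUT, chr15:48332097-48332196, bases -100 to -1: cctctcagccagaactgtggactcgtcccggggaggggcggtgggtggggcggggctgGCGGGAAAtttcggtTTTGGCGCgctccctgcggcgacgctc
CDT1, chr16:88803689-88803788, bases -100 to -1: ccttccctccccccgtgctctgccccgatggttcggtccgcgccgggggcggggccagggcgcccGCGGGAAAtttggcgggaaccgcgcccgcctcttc
UHRF1, chr19:4909401-4909500, bases -100 to -1: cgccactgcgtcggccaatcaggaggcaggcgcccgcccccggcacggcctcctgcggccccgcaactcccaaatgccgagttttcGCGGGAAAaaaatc
UHRF1, chr19:4909938-4910037, bases -206 to -107: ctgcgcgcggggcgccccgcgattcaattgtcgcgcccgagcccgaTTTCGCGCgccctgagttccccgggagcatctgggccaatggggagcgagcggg
GINS1, chr20:25407667-25407696, bases -6 to 24: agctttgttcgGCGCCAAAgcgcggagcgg

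Most of the 49 genes had lower signals with DM than without it, both in the absence and in the presence of BMP2. The plot of all 49 genes over the 12 arrays gives each value relative to the PBS mean of its gene. Averaged over the 49 genes, the log2 distance from the PBS mean was 0.04, -0.01 and -0.03 on the PBS arrays, 0.04, 0.12 and 0.05 on the BMP2 arrays, -0.13, -0.15 and -0.15 on the DM arrays, and -0.18, -0.13 and -0.02 on the BMP2+DM arrays. The 3 DM arrays lay below every PBS and BMP2 array, and the third BMP2+DM array reached into the PBS range. The group means were 0.07 ± 0.04 with BMP2, -0.14 ± 0.01 with DM and -0.11 ± 0.08 with BMP2+DM (SD, n = 3). In RNA from whole dishes, fewer cells in S phase and less RNA of these genes in each cell cannot be told apart.

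**Figure D1:**
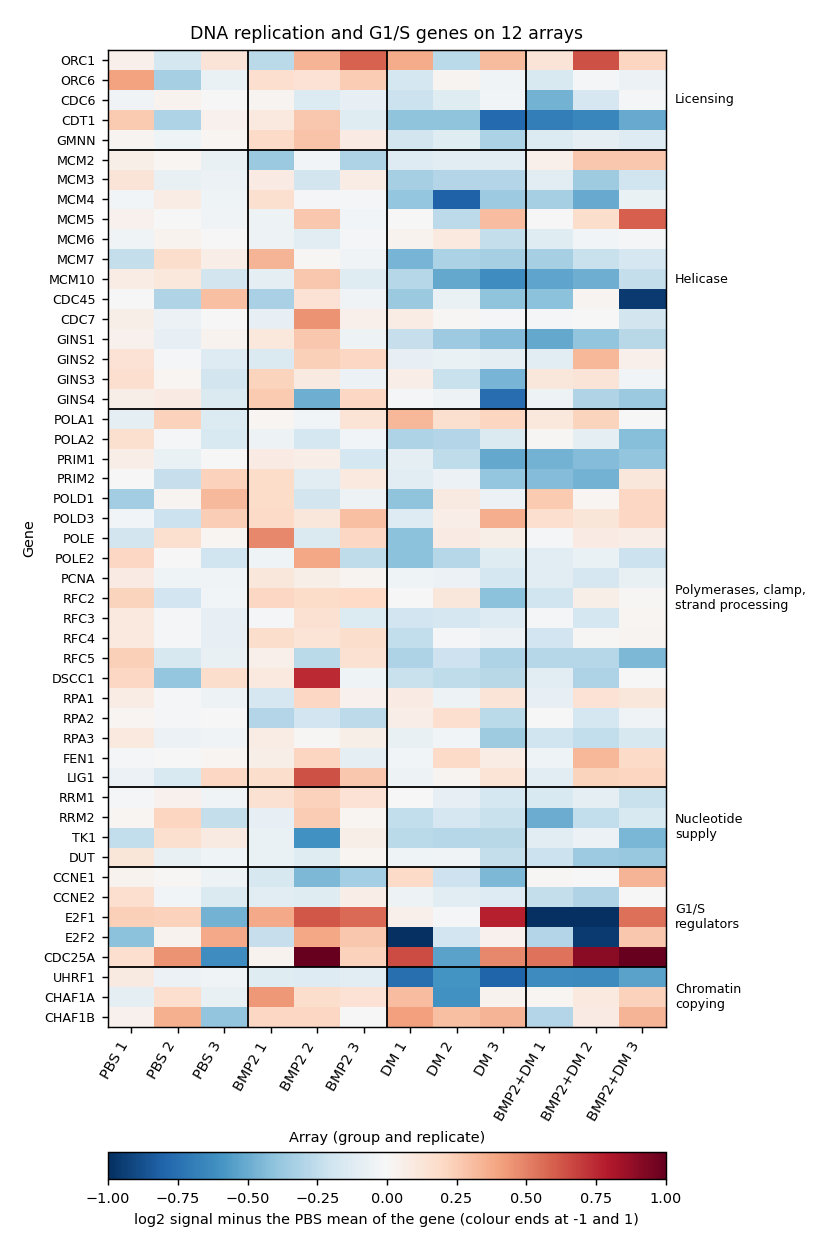
Heat map of the log2 signal of the 49 genes (rows, grouped by role) on the 12 arrays (columns, grouped by treatment), each minus the mean of its gene over the 3 PBS arrays; blue is lower, red higher, and colours end at -1 and 1. The DM and BMP2+DM columns hold more blue than the PBS and BMP2 columns, most evenly in UHRF1, CDT1 and GINS1, while E2F1, E2F2 and CDC25A vary strongly between arrays of 1 group.

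With BMP2 alone, 0 of the 49 genes were called, where a call means an adjusted p under 0.05 in the limma fit over all 12674 genes. Over all genes 0.631% were called in this comparison, with 0.308% lower and 0.323% higher. The median log2 change of the 49 was 0.06 against 0.03 for all genes. At an unadjusted p under 0.05 stood 5 of them: LIG1, GMNN and RRM1 higher and MCM2 and RPA2 lower, with 4.7% of all genes lower and 5.78% higher at that threshold. LIG1, the ligase of Okazaki fragments, had the smallest adjusted p of the 49 by limma, 0.425, at 0.36 ± 0.16. The BMP2 arrays lay wholly below the PBS arrays for 3 genes (6.07% of all genes) and wholly above for 4 (8.97% of all genes). Standard errors of the 49 genes had a median of 0.14 on the log2 scale, against 0.20 for all genes.

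With DM alone, UHRF1 and MCM4 were called, both lower. These are 2 of 49, against 1.71% of all genes called lower, and 0 of the 49 were called higher against 1.86% (3.57% in either direction). The change was negative for 38 of the 49 (77.6%), against 47.4% of all genes, and its median was -0.12 against 0.02. With each array centred on its own median they were -0.065 and 0.08, and UHRF1 alone was called; it was also the single call without the trend in the variance. At an unadjusted p under 0.05, 10 of the 49 were lower (20.4%, against 7.37% of all genes) and 0 higher (8.82% of all genes). All 3 DM arrays lay below all 3 PBS arrays for 13 genes (26.5%, against 9.94%), and above for 0 (11.9% of all genes).

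With DM added to BMP2, 6 genes were called lower than with BMP2 alone, CDT1, GMNN, GINS1, PRIM1, RRM1 and UHRF1, and MCM2 was called higher. Over all genes 3.17% were called lower and 4.08% higher, 7.25% in all. The change was negative for 39 of the 49 (79.6%), against 46.1% of all genes, with a median of -0.21 against 0.03. At an unadjusted p under 0.05 stood 16 lower (32.7%, against 9.51%) and 2 higher (4.08%, against 12.2%). The BMP2+DM arrays lay wholly below the BMP2 arrays for 17 genes (34.7%, against 11.8%) and wholly above for 3 (6.12%, against 14%). With each array centred on its own median the medians were -0.15 and 0.09, and 0 of the 49 were called. Without the trend in the variance only GINS1 and UHRF1 were, and GMNN and PRIM1 were not called when the fit held these groups alone.

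Over all genes, centring each array on its own median moved the split of lower and higher calls. It went from 217 lower and 236 higher to 83 and 151 with DM alone, from 402 and 517 to 140 and 377 with DM added to BMP2, and from 39 and 41 to 33 and 17 with BMP2 alone. For BMP2 added to DM it went from 1 and 5 to 2 and 4, for the interaction from 2 and 13 to 0 and 2, and for both reagents against PBS from 214 and 305 to 96 and 125.

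The pair DM against PBS and BMP2+DM against BMP2 shares no array. In both, 34 of the 49 genes had a negative change (69.4%), against 28% of all genes, and 6 had a positive change in both (12.2%), against 34.5%. Median log2 changes with DM alone were -0.12 for licensing, -0.28 for the helicase group, -0.11 for polymerases and strand processing, -0.16 for nucleotide supply, -0.10 for the regulators and -0.09 for chromatin copying. With BMP2 present they were -0.26, -0.21, -0.16, -0.30, -0.13 and -0.13 in the same order. The change was negative for 4 of 5 licensing genes, 11 of 13 helicase genes, 14 of 19 polymerase genes and 4 of 4 nucleotide supply genes, the same numbers with DM alone and with DM added to BMP2. The difference between roles was not tested, since the genes of a role are not replicates.

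Averaged by array, the lowest group mean was that of DM for helicase, licensing and polymerase genes and of BMP2+DM for nucleotide supply genes. In each of these roles the DM and BMP2+DM arrays overlapped. Helicase genes averaged -0.23 ± 0.07 on the log2 scale from the PBS mean with DM and -0.14 ± 0.04 with BMP2+DM, and nucleotide supply genes -0.17 ± 0.05 and -0.25 ± 0.06 (SD, n = 3). Licensing genes averaged -0.16 ± 0.03 and -0.14 ± 0.11, and polymerase genes -0.10 ± 0.05 and -0.06 ± 0.03. With BMP2 alone the same means were 0.02 ± 0.04 for the helicase group, -0.01 ± 0.06 for nucleotide supply, 0.12 ± 0.07 for licensing and 0.07 ± 0.03 for the polymerases. These means rest on the same 12 arrays and were not tested against each other.

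**Figure D2:**
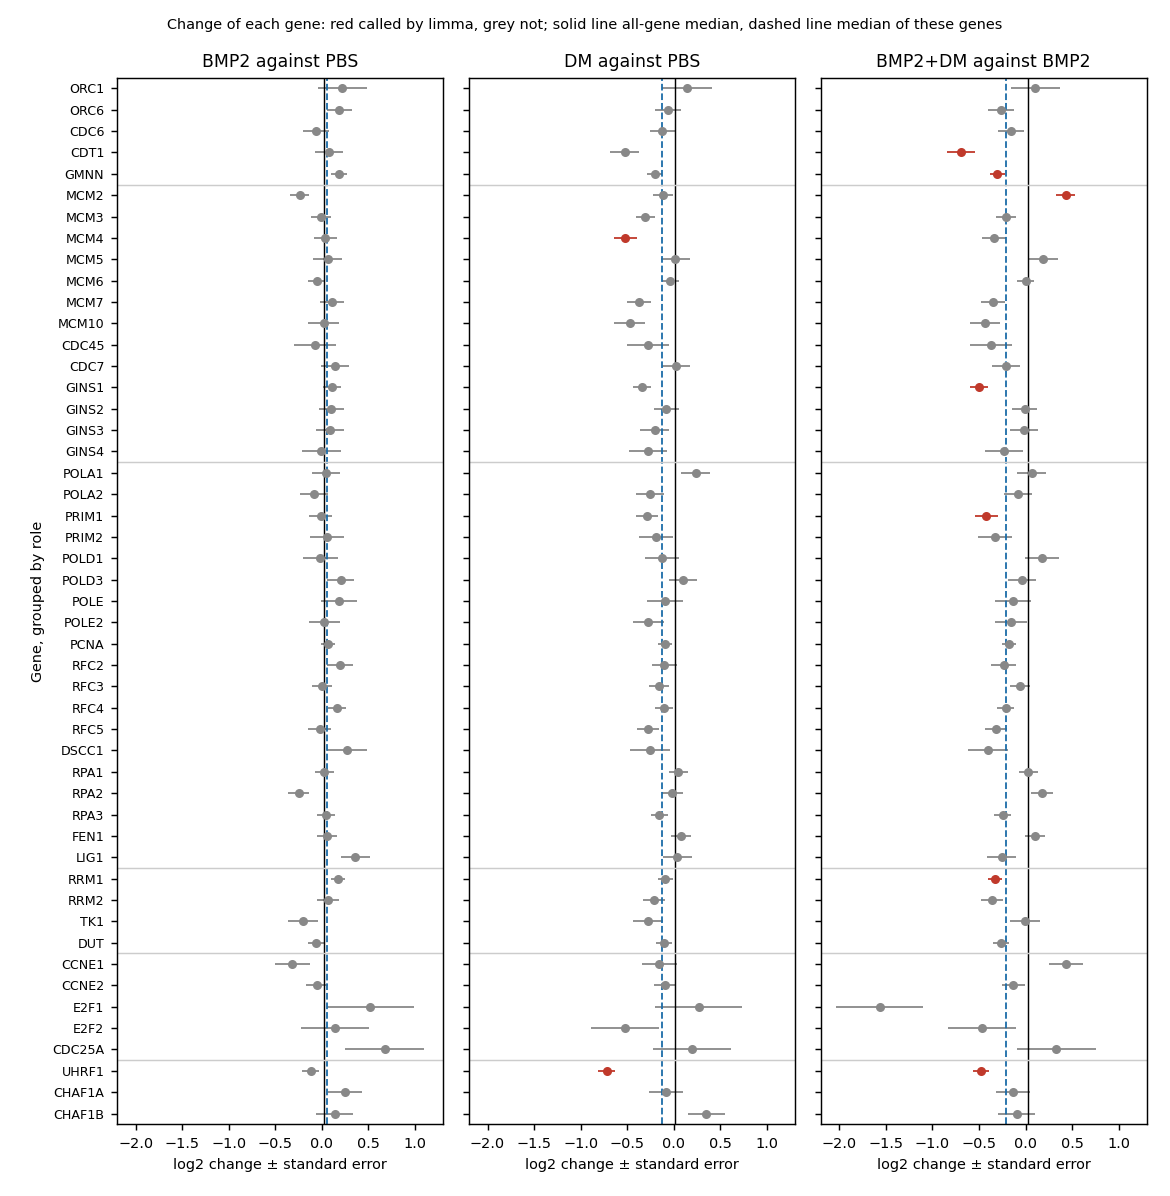
Log2 change (points) ± standard error (lines) of the 49 genes in 3 comparisons, from the limma fit over 3 arrays a group; red points were called, grey were not, the solid line is the median of all genes tested and the dashed line the median of the 49. With BMP2 alone both medians lie close together (0.06 and 0.03), and in both DM comparisons the 49 genes lie mostly to the left (medians of -0.12 and -0.21).

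**Figure D3:**
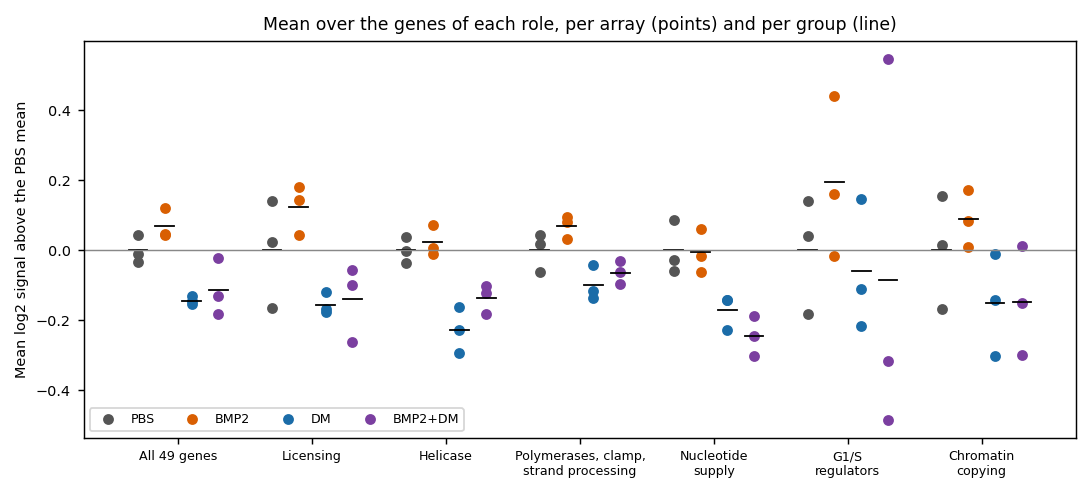
Mean log2 signal above the PBS mean over the 49 genes and over the genes of each role, for each array (points) and group (black lines, mean of 3 arrays). The helicase genes averaged -0.23 on the DM arrays and 0.02 on the BMP2 arrays with no overlap, and the regulators spread from -0.48 to 0.55 within the BMP2+DM group.

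Among the licensing genes, CDT1 and its inhibitor were both called lower when DM was added to BMP2. CDT1, which loads the MCM ring together with CDC6, had signals of 2429, 1636 and 2086 with PBS, 2161, 2439.7 and 1856 with BMP2, 1531, 1535 and 1178 with DM and 1256, 1286 and 1426 with BMP2+DM. Every array with DM lay below every array without it. CDT1 fell by 0.70 ± 0.15 on the log2 scale when DM was added to BMP2 (1.62-fold, limma adjusted p = 0.00953), and by 0.62 ± 0.15 with both reagents against PBS (adjusted p = 0.0285). With DM alone its change was -0.53 ± 0.15, which was not called (adjusted p = 0.068). The call against PBS was lost without array 1 or 3 of the PBS group or any 1 of the BMP2+DM arrays (adjusted p of 0.0551 to 0.142). The CDT1 probe set carries the _x_ suffix, which marks possible matches to other transcripts, so its values are uncertain.

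GMNN encodes geminin, the inhibitor that holds CDT1 inactive after S phase begins. Its signals were 7266, 6906 and 7209.6 with PBS, 8146, 8662 and 7533 with BMP2, 6287, 6536 and 5737 with DM and 6481, 6682 and 6527 with BMP2+DM. BMP2 arrays were the highest and did not overlap any other group, and all arrays with DM lay below all arrays without it. GMNN fell by 0.30 ± 0.08 when DM was added to BMP2 (adjusted p = 0.0318); the call was lost when array 1 or 2 of BMP2 or any BMP2+DM array was left out (adjusted p of 0.0799 to 0.098). Its other changes, 0.19 ± 0.08 with BMP2 and -0.21 ± 0.08 with DM, were not called. The remaining licensing genes were not called in any comparison: CDC6 had -0.12 ± 0.14 with DM alone, ORC6 had -0.26 ± 0.14 with DM added to BMP2, and ORC1, the largest origin recognition subunit, had 0.22 ± 0.27, 0.14 ± 0.27 and 0.11 ± 0.27 in the BMP2, DM and DM-added comparisons.

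Of the MCM ring subunits, MCM4 was called lower with DM alone and MCM2 higher when DM was added to BMP2. MCM4 had signals of 4179, 4486 and 4132 with PBS, 3260.2, 2440.2 and 3305 with DM, 4759, 4202 and 4196 with BMP2 and 3389, 3008 and 4063 with BMP2+DM. Arrays with DM lay below those without it. MCM4 fell by 0.52 ± 0.13 with DM alone (1.43-fold, adjusted p = 0.028), with -0.34 ± 0.13 when DM was added to BMP2 (adjusted p = 0.117, not called). Leaving out DM array 2, the lowest, gave -0.38 (adjusted p = 0.136), and leaving out any PBS array also ended the call (adjusted p of 0.0683 to 0.0998).

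MCM2 is another subunit of the same ring. Its signals were 3805, 3699 and 3467 with PBS, 2818, 3585 and 2958 with BMP2, 3346, 3404 and 3379 with DM and 3778, 4398 and 4415 with BMP2+DM. BMP2+DM was above BMP2 and DM on every array and overlapped PBS. MCM2 rose by 0.43 ± 0.10 when DM was added to BMP2 (adjusted p = 0.0156), while its change with DM alone was -0.11 ± 0.10. The call was lost without array 1 or 3 of BMP2 or array 2 or 3 of BMP2+DM (adjusted p of 0.0639 to 0.0751). The test of the difference between both DM changes, which is the interaction, gave 0.55 ± 0.15 and was not called (adjusted p = 0.229), although this was the smallest p of the 49 genes in that test.

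The other ring subunits were not called. MCM3 had -0.30 ± 0.11, MCM7 -0.37 ± 0.13, MCM6 -0.04 ± 0.09 and MCM5 0.02 ± 0.16 with DM alone. For MCM3 and MCM7 all 3 DM arrays lay below all PBS arrays, at 2276 to 2339.7 against 2716 to 3130.5 and at 1591 to 1762 against 1858 to 2482. MCM6 lay at 9125 to 9572 with PBS and 8586 to 9198 with BMP2+DM, and its 95% interval with DM added to BMP2 ran from -0.19 to 0.19.

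Of the genes that activate the ring, GINS1 was called. It encodes a subunit of the GINS complex, which joins CDC45 and the MCM ring in the active helicase. Signals were 7136, 6526 and 7099 with PBS, 7449, 8342 and 6685 with BMP2, 5880.5, 5375 and 5131 with DM and 4837, 5273 and 5702 with BMP2+DM, so that each array with DM lay below each array without it. GINS1 fell by 0.50 ± 0.10 when DM was added to BMP2 (1.42-fold, adjusted p = 0.00385) and by 0.39 ± 0.10 with both against PBS (adjusted p = 0.0281). With DM alone it had -0.34 ± 0.10 (adjusted p = 0.0633, not called). The call against PBS, though not that against BMP2, was lost without PBS array 1 or 3 or BMP2+DM array 1 or 2 (adjusted p of 0.0854 to 0.11).

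Its partner subunits were not called. GINS2 had -0.08 ± 0.13 and -0.01 ± 0.13 with DM alone and with DM added to BMP2, GINS3 -0.21 ± 0.15 and -0.02 ± 0.15, and GINS4 -0.28 ± 0.21 and -0.23 ± 0.21. MCM10, which helps to activate the loaded helicase, had -0.47 ± 0.16 and -0.44 ± 0.16, with DM arrays at 620.2 to 785 below PBS arrays at 840.5 to 1029. CDC45 had -0.28 ± 0.23 and -0.37 ± 0.23, with arrays that overlapped, and the kinase CDC7 had 0.02 ± 0.15 and -0.21 ± 0.15. A difference between GINS1 and these genes was not tested.

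In the polymerase and strand processing group 1 of 19 genes was called. PRIM1, the catalytic subunit of the primase that starts each new strand, had signals of 2105, 1917 and 2015 with PBS, 2125, 2103 and 1777 with BMP2, 1881, 1686 and 1412 with DM and 1449.7, 1492 and 1528 with BMP2+DM. The BMP2+DM arrays lay below all BMP2 and PBS arrays, and those of DM below the PBS arrays. PRIM1 fell by 0.42 ± 0.12 when DM was added to BMP2 (adjusted p = 0.0424), with -0.29 ± 0.12 for DM alone (adjusted p = 0.24, not called). Leaving out array 1 or 2 of BMP2 or any BMP2+DM array ended the call (adjusted p of 0.0887 to 0.127).

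The polymerase subunits themselves gave small values of either sign. POLA1, the catalytic subunit of the priming polymerase, had the highest change of the group with DM alone, 0.24 ± 0.16, and its second subunit POLA2 had -0.25 ± 0.15. The leading strand polymerase POLE had -0.09 ± 0.19 and its subunit POLE2 -0.27 ± 0.17, and the lagging strand polymerase POLD1 had -0.12 ± 0.19 and POLD3 0.10 ± 0.15. For each of these 6 genes the DM arrays overlapped the PBS arrays. PRIM2, the other primase subunit, had -0.19 ± 0.18 with DM alone and -0.33 ± 0.18 with DM added to BMP2.

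The sliding clamp and the 4 listed subunits of its loader had negative values in both DM comparisons, none of them called. PCNA, the clamp, had -0.09 ± 0.08 with DM alone and -0.18 ± 0.08 with DM added to BMP2; the 95% interval of the first ran from -0.25 to 0.07. Of the loader subunits, RFC5 had -0.27 ± 0.12 and -0.32 ± 0.12, RFC4 -0.11 ± 0.09 and -0.21 ± 0.09, RFC2 -0.10 ± 0.14 and -0.24 ± 0.14, and RFC3 -0.16 ± 0.11 and -0.06 ± 0.11. Of these 4, RFC5 alone reached an unadjusted p under 0.05 in both. RFC1, the largest loader subunit and not among the 49, had -0.01 ± 0.15 and 0.07 ± 0.15, neither called. DSCC1, of the alternative clamp loader used in cohesion, had -0.25 ± 0.22 and -0.40 ± 0.22.

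Single-strand binding and end processing genes were not called and had values of either sign. RPA3 had -0.25 ± 0.09 with DM added to BMP2, RPA1 0.03 ± 0.10 and RPA2 0.18 ± 0.11, and the 3 products form 1 complex. RPA2 had the lowest change of the group with BMP2 alone, with signals of 1849, 1991 and 1895 against 2297, 2246 and 2264 with PBS and no overlap, at -0.25 ± 0.11 (adjusted p = 0.464, not called). FEN1, which trims flaps, had 0.08 ± 0.11 and LIG1 0.04 ± 0.16 with DM alone.

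All 4 nucleotide supply genes had a negative change with DM alone and with DM added to BMP2, and RRM1 and DUT were each called in 1 comparison. RRM1, the large subunit of ribonucleotide reductase, had signals of 9993, 10369 and 9809 with PBS, 11162, 11765 and 11132 with BMP2, 10001, 9477 and 8915 with DM and 9027, 9443 and 8622 with BMP2+DM. The BMP2 arrays were above all others. RRM1 fell by 0.33 ± 0.08 when DM was added to BMP2 (adjusted p = 0.0134), with -0.09 ± 0.08 for DM alone and 0.17 ± 0.08 for BMP2 alone, neither called. Without BMP2+DM array 3 the call was lost (adjusted p = 0.0675). With BMP2 alone the further RRM1 probe set, 201476_s_at, went the other way. Its mean signal was 2075 with BMP2 and 2503 with PBS, with arrays that overlapped.

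DUT encodes the dUTPase that keeps uracil out of DNA. Its signals were 20560.3, 18024 and 18364 with PBS, 18072, 17392 and 19167 with BMP2, 18372, 18500.0 and 16084 with DM and 16333, 14749 and 14569 with BMP2+DM. BMP2+DM lay below PBS and BMP2 and overlapped DM. DUT fell by 0.32 ± 0.09 with both reagents against PBS (adjusted p = 0.0449); the call was lost without any 1 PBS array or BMP2+DM array 2 or 3 (adjusted p of 0.0643 to 0.167). TK1, thymidine kinase, had -0.28 ± 0.16 with DM alone, with DM arrays at 1734 to 1753 below PBS arrays at 1781 to 2360.1, and -0.0037 ± 0.16 with DM added to BMP2. The DUT probe set, like that of CDT1, carries the _x_ suffix. RRM2, the small subunit of the reductase and its S phase partner, had -0.21 ± 0.12 and -0.36 ± 0.12 on its brightest probe set, neither called.

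Of the G1/S regulators none was called, and 3 of 5 varied widely between arrays of 1 group. E2F1, the activating E2F factor, had signals of 461, 458 and 282 with PBS, 508, 599 and 579 with BMP2, 404, 384 and 671 with DM and 128, 93.1 and 570.3 with BMP2+DM. The first and second BMP2+DM arrays were the lowest of the 12, and the third lay among the BMP2 arrays. The change when DM was added to BMP2 was -1.56 ± 0.47 (adjusted p = 0.0509, not called), and the interaction was -1.83 ± 0.66 (adjusted p = 0.434). Without BMP2+DM array 3 these became -2.36 ± 0.31 (adjusted p = 0.000345) and -2.63 ± 0.42 (adjusted p = 0.0344), and without BMP2+DM array 2 they were -1.05 ± 0.45 (adjusted p = 0.220) and -1.32 ± 0.60 (adjusted p = 0.632). A further E2F1 probe set, 2028_s_at, gave 341, 288 and 240.4 with BMP2 and 316, 363 and 344 with BMP2+DM, a change of 0.25 ± 0.22, so the probe sets differed in sign.

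E2F2 and CDC25A also varied between arrays. E2F2 had 161, 374 and 441 with DM against 321, 439 and 555 with PBS, a change of -0.52 ± 0.37, the lowest of the regulators in that comparison. CDC25A, the phosphatase that activates cyclin E and CDK2, had 452, 581 and 926 with BMP2+DM against 349, 424 and 202 with PBS, a change of 1.01 ± 0.42 with arrays that did not overlap (adjusted p = 0.2, not called). CCNE1, cyclin E1, was lowest with BMP2, at 596, 486 and 526 against 681, 672 and 642 with PBS, and reached 669, 666 and 841 with BMP2+DM. Its change was -0.32 ± 0.19 with BMP2 and 0.43 ± 0.19 when DM was added to BMP2, with arrays that did not overlap in either (adjusted p = 0.585 and 0.181, not called). CCNE2 had -0.10 ± 0.12 and -0.13 ± 0.12 in the DM comparisons.

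On the brightest probe sets, UHRF1 had the smallest adjusted p of the 49 genes in each of the 3 comparisons that called it. In the limma fit of all probe sets, the further RRM2 probe set 209773_s_at had a smaller one in all 3. With DM alone these were 4.36e-05 for RRM2 and 0.00025 for UHRF1. UHRF1 encodes the protein that binds newly copied, hemimethylated DNA and recruits the maintenance methyltransferase DNMT1. Signals were 5049.5, 4539 and 4634 with PBS, 4355, 4332 and 4376 with BMP2, 2802, 3125 and 2720.2 with DM and 3065, 3049 and 3269 with BMP2+DM, or 4741 ± 271 (SD, n = 3), 4354 ± 22.2 (SD, n = 3), 2882 ± 214 (SD, n = 3) and 3128 ± 122 (SD, n = 3) in the same order. All 6 arrays with DM lay below all 6 without it. UHRF1 fell by 0.72 ± 0.09 with DM alone (1.65-fold, adjusted p = 0.000102), by 0.48 ± 0.09 with DM added to BMP2 (1.39-fold, adjusted p = 0.00289) and by 0.60 ± 0.09 with both against PBS (1.51-fold, adjusted p = 0.000601). With BMP2 alone it had -0.12 ± 0.09 (adjusted p = 0.677, not called), with a 95% interval from -0.31 to 0.07. The interaction was 0.24 ± 0.13 (adjusted p = 0.613, not called).

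The other chromatin copying genes were not called. CHAF1A and CHAF1B, subunits of the factor that places histones behind the fork, had -0.09 ± 0.18 and 0.35 ± 0.20 with DM alone, and -0.13 ± 0.18 and -0.10 ± 0.20 with DM added to BMP2. The arrays of both genes overlapped between the groups in each of these comparisons.

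**Figure D4:**
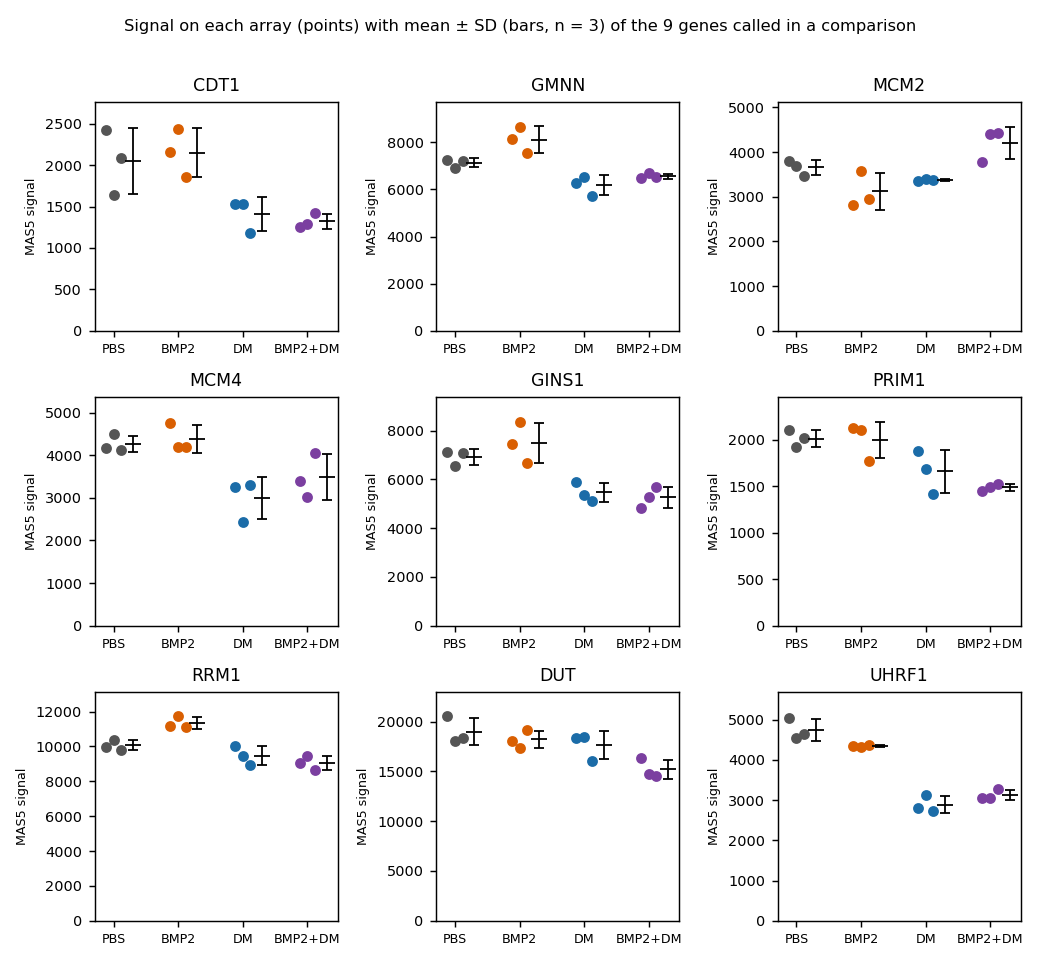
MAS5 signal on a linear axis from 0 of the 9 genes called in at least 1 comparison, with each array as a point and the mean ± SD of the 3 arrays of a group as a bar. UHRF1, CDT1, GINS1, MCM4 and GMNN lay lower on all 6 arrays with DM (blue and purple) than on the 6 without it (grey and orange). MCM2 was highest with BMP2+DM.

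With BMP2 added to DM, 0 of the 49 genes were called, against 0.0473% of all genes (0.00789% lower and 0.0395% higher). The limma fit gave 3 at an unadjusted p under 0.05: MCM2 higher at 0.31 ± 0.10, DUT lower at -0.21 ± 0.09 and E2F1 lower at -1.31 ± 0.47, against 5.1% of all genes higher and 3.78% lower. The median was 0.06 against 0.04 for all genes. In this comparison and in BMP2 against PBS, which share no array, 20 of the 49 had a positive change (40.8%, against 31.2% of all genes) and 8 a negative one (16.3%, against 20.3%). The BMP2+DM arrays lay wholly below the DM arrays for 0 genes (5.97% of all genes) and wholly above for 1, MCM2 (9.19%).

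With both reagents against PBS, CDT1, GINS1, DUT and UHRF1 were called lower, 4 of 49 against 1.69% of all genes, and 0 were called higher against 2.41% (4.09% in either direction). The median was -0.12 against 0.05, and the change was negative for 33 genes (67.3%, against 42.9%). At an unadjusted p under 0.05 stood 11 lower (7.25% of all genes) and 1 higher, CDC25A (11.4%). The BMP2+DM arrays lay wholly below the PBS arrays for 13 genes (26.5%, against 10%) and wholly above for 2, CDC25A and ORC1 (15.8% of all genes). Without PBS array 1, PBS array 3 or BMP2+DM array 2 the count was 1, UHRF1, and without BMP2+DM array 1 it was 2. Median centring and the variance without trend also left UHRF1 alone. This comparison shares its PBS arrays with DM against PBS and its BMP2+DM arrays with BMP2+DM against BMP2, so the 3 are not independent.

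The interaction, the change with BMP2 in the presence of DM minus that in its absence, was called for 0 of the 49 genes, against 0.118% of all genes (0.0158% negative and 0.103% positive). At an unadjusted p under 0.05 stood 4 genes in limma: MCM2 and CCNE1 positive, RRM1 and E2F1 negative (4.5% of all genes positive, 4.21% negative). Its standard errors had a median of 0.20 on the log2 scale. Without BMP2+DM array 3, 1 gene was called, E2F1.

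For 28 of the 49 genes the array carries several probe sets, 93 in all, of which 84 passed the filter. Fitted together with all 27306 probe sets, 4 of the 84 were called lower and 0 higher with DM alone (1.02% and 1.07% of all probe sets). With DM added to BMP2, 6 were called lower and 1 higher (2.18% and 2.34%), and with both against PBS 4 lower and 0 higher (1.98% and 1.53%). With BMP2 added to DM 0 were called (0.0293% lower and 0.0183% higher). In this fit GMNN, PRIM1 and DUT were not called. RRM2 and MCM10 were called on probe sets other than their brightest. Of the 35 further probe sets above the filter, 23 had the sign of their gene's brightest with DM alone and 26 with DM added to BMP2.

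RRM2 gave changes of different size on its probe sets. The second, 209773_s_at, had signals of 8473, 8476 and 8351 with PBS, 8786, 8445 and 8431 with BMP2, 4829, 5167 and 4258 with DM and 4878, 5396 and 5358 with BMP2+DM. No array with DM came near an array without it. On this probe set RRM2 fell by 0.83 ± 0.09 with DM alone (adjusted p = 4.36e-05), by 0.72 ± 0.09 with DM added to BMP2 (adjusted p = 0.000129) and by 0.70 ± 0.09 with both against PBS (adjusted p = 0.000344). The brightest, 201890_at, had 9595, 10969.8 and 7998 with PBS and 7969, 8419.9 and 8081 with DM, which overlap, and gave -0.21 ± 0.12 (adjusted p = 0.482). Both were negative, and their difference was not tested.

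MCM10 had 3 probe sets above the filter, and all 3 had a negative change with DM alone. On 222962_s_at it fell by 0.91 ± 0.22 with DM alone (adjusted p = 0.0366) and by 0.80 ± 0.22 with DM added to BMP2 (adjusted p = 0.0435), from signals of 428, 559 and 477 with PBS to 305, 225 and 253 with DM. On 223570_at it had -0.81 ± 0.24 and -0.10 ± 0.24, neither called. MCM4 had -0.51 ± 0.27, -0.10 ± 0.15 and -0.05 ± 0.16 on its further probe sets with DM alone. On a further probe set MCM7 had -0.51 ± 0.13 (adjusted p = 0.0513) with DM alone but -0.02 ± 0.13 with DM added to BMP2. CDT1 had -0.64 ± 0.40 and -0.24 ± 0.40 on its further probe set, and RRM1 -0.29 ± 0.18 and -0.19 ± 0.18, none called. For DUT a further probe set, 208955_at, gave 0.05 ± 0.13 with both against PBS, the opposite sign to the brightest (adjusted p = 0.896). Another, 209932_s_at, was lower with both reagents, like the brightest, though not called. Its signals were 12413, 12318 and 11235.5 with PBS and 9818, 9492 and 9903 with BMP2+DM, without overlap.

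**Figure D5:**
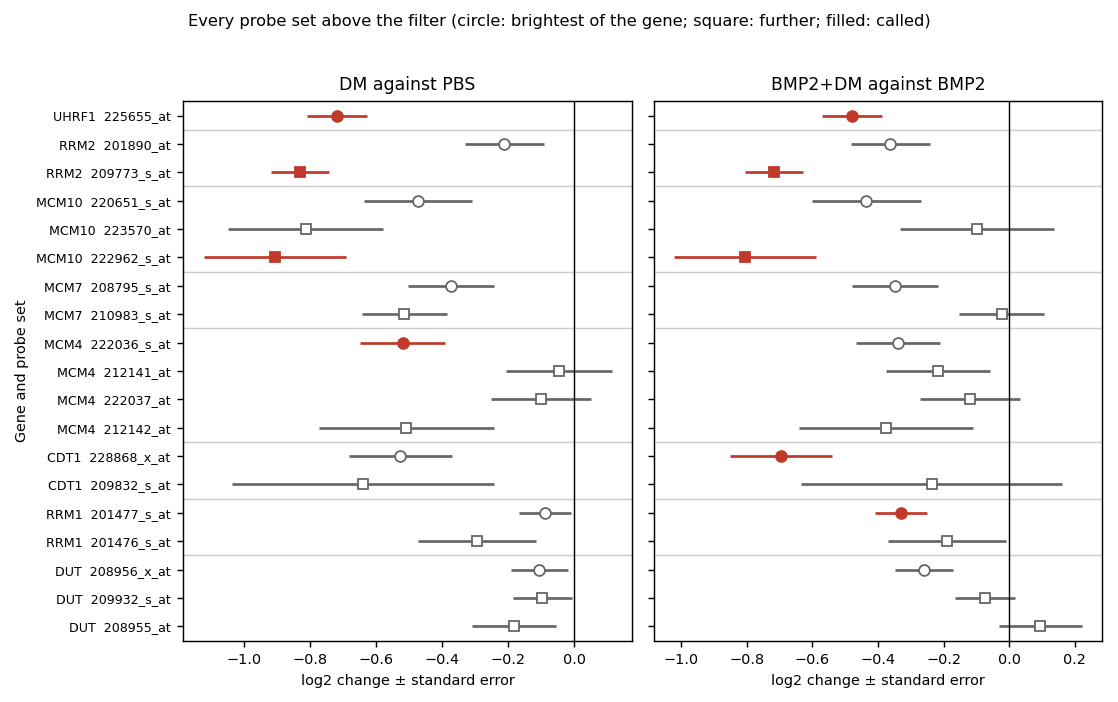
Log2 change ± standard error of every probe set above the filter for 8 genes, with DM alone (left) and with DM added to BMP2 (right); circles are the brightest probe set of a gene, squares further ones, and filled red symbols were called in the fit of all 27306 probe sets. RRM2 is called on its second probe set and not on its brightest in both panels, and the MCM4 probe sets range from -0.52 to -0.05 with DM alone.

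Of 39 other genes of replication, not among the 49, 38 passed the filter. With DM alone 1 was called, lower (2.63%, against 1.71% of all genes): CCNA2, cyclin A2 of S and G2 phase, at -0.46 ± 0.11. With DM added to BMP2 CCNA2 fell by 0.41 ± 0.11 and ORC3, an origin recognition subunit, by 0.43 ± 0.13; 2 of 38 were called lower (5.26%, against 3.17% of all genes) and 0 higher (4.08%). Medians were -0.10 and -0.12, and 0 of 38 were called with BMP2 alone (0.631% of all genes). There limma gave 1 at an unadjusted p under 0.05, higher (2.63%, against 5.78% of all genes).

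The RB and E2F pathway controls these genes at the G1/S transition. Of 20 tested genes 0 were called with DM alone (3.57% of all genes). There limma gave 4 lower and 1 higher at an unadjusted p under 0.05 (20% and 5%, against 7.37% and 8.82% of all genes). With DM added to BMP2, 3 of 20 were called lower and 2 higher, against 3.17% and 4.08% of all genes. CDK6, a kinase of RB, fell by 0.57 ± 0.11, TFDP2, a partner of the E2F factors, by 0.61 ± 0.14, and E2F7, a repressor among the E2F factors, by 0.46 ± 0.11. CCND1, cyclin D1 and the partner of CDK6, rose by 0.83 ± 0.19, and MYC by 0.64 ± 0.18. CCND1 also rose with both against PBS, by 0.76 ± 0.19, as 1 of 20 (2.41% of all genes were called higher).

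Of 26 genes of mitosis, 9 were called lower with DM alone and 0 higher (1.71% and 1.86% of all genes), and 4 had a positive change. The 26 had a median of -0.24, and KIF20A was at -0.59 ± 0.12 and BIRC5 at -0.41 ± 0.08. With DM added to BMP2, 13 of 26 were called lower (3.17% of all genes), with a median of -0.38, among them ASPM at -0.62 ± 0.10, ANLN at -0.58 ± 0.09 and KIF11 at -0.61 ± 0.11. With both against PBS, 4 of 26 were called lower (1.69% of all genes). With BMP2 alone 0 of 26 were called (0.631% of all genes), and the median was 0.13. Limma gave 6 at an unadjusted p under 0.05, all higher (23.1%, against 5.78% of all genes). The part of this movement in the values of the 49 genes was not tested, and a difference between the lists was not tested.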

How the data were processed

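RNA of 12 SK-OV-3 dishes (4 groups of 3) was measured on Affymetrix arrays. The deposited values are MAS5 signals, per the submitters' processing notes (version not stated): 1 linear intensity by the authors for each of 54613 probe sets, scaled to a common trimmed mean as the values show. Probe sets were named from a table of the platform. Values under 1 were raised to 1 and taken to log2, the brightest probe set with 1 symbol stood for a gene, and genes at or below the median signal were left out. One limma model (limma 3.58.1, R 4.3.3; empirical Bayes with an intensity trend, residual df 8, prior df 9.24) was fitted to all 12674 genes and 12 arrays, with two-sided tests and Benjamini-Hochberg adjustment over all genes. A permutation test of 3 arrays against 3 cannot go below p = 0.1, so none was used.

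The 49 genes and the other lists were chosen with earlier results of these data known, so counts and medians of a list are descriptions. Genes were named if called, or if lowest or highest of their role with BMP2, with DM or with DM added to BMP2, with the remaining genes of the 49 given more briefly, and up to 4 called genes of each other list in a comparison (MYC, beyond these, and RFC1, which was not called, were named after their values were seen). The labels' replicate numbers did not pair the arrays: 0 of 18 same-number pairs had a correlation of deviations above 0.1 (range -0.03 to 0.06). On simulated data of 12674 genes, with 200 changed, the code recovered 27% of 1.5-fold and 53.8% of 2-fold changes for DM against PBS, with 4.86% of calls false. Alternatives were quantile normalization, median centring, an added 32 before log2, the mean of probe sets, no filter, a filter that keeps the brightest 30%, variance without trend or robust, only the groups compared, a replicate block and leaving out each array.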

Additional observations from a re-analysis of the deposited data

How the results depend on the processing

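The signs of the 49 genes' median changes held under the alternatives for DM against PBS (-0.16 to -0.065), BMP2+DM against BMP2 (-0.22 to -0.15) and BMP2+DM against PBS (-0.14 to -0.07). With median centring the median was -0.15 for BMP2+DM against BMP2, and it changed sign to -0.012 for BMP2 against PBS and -0.014 for BMP2+DM against DM, where the median of all genes moved as far (to -0.05 and -0.03). With probe sets averaged it was -0.013 for BMP2+DM against DM. Counts of called genes among the 49 moved more. Median centring left 1 for DM against PBS, 0 for BMP2+DM against BMP2 and 1 for BMP2+DM against PBS, and variance without trend left 1, 2 and 1. The brightest 30% of probe sets gave 4 for DM against PBS, and the mean of probe sets 2 for BMP2+DM against PBS. Leaving out 1 array gave 1 to 2 calls for DM against PBS, 4 to 6 for BMP2+DM against BMP2, 1 to 3 for BMP2+DM against PBS, 0 to 1 for BMP2+DM against DM and 0 to 1 for the interaction (E2F1 without BMP2+DM array 3). A single call, UHRF1, was left for DM against PBS without PBS array 1 or 3 or DM array 2, and 4 for BMP2+DM against BMP2 without BMP2 array 1 or BMP2+DM array 2 or 3. UHRF1 was called in all 16 alternatives for DM against PBS and BMP2+DM against PBS, and in 15 of 16 for BMP2+DM against BMP2 (adjusted p = 0.0955 with median centring). DUT reversed with its further probe set 208955_at, to 0.048 against PBS. With its other further probe set, 209932_s_at, it stayed lower but was not called. With the replicate block, counts were 2 for DM against PBS, 8 for BMP2+DM against BMP2 and 3 for BMP2+DM against PBS, where DUT was lost (adjusted p = 0.0544); 8 of 12 arrays correlated best with their own number, a hint from the data only. The causes of these shifts were not tested. Over all genes, calls ranged from 176 to 526 for DM against PBS (453 as reported), 414 to 1045 for BMP2+DM against BMP2 (919), 221 to 683 for BMP2+DM against PBS (519), 12 to 99 for BMP2 against PBS (80), 2 to 21 for BMP2+DM against DM (6) and 0 to 42 for the interaction (15).

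Precision was set by 3 arrays a group. In simulated data 27% of 1.5-fold changes for DM against PBS were recovered, and 28.8% for BMP2+DM against BMP2, so a gene that was not called is not shown to be level. The changed genes were drawn from all 12674, whose standard errors had a median of 0.20, against 0.14 for the 49. The rate for the 49 genes themselves was not measured. The interaction recovered 8% of 1.5-fold and 30.4% of 2-fold differences. Probe sets with the _x_ suffix (CDT1, DUT, CHAF1A and ORC6) are marked as open to signal from other transcripts.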
